A study of Rattus norvegicus with 18 samples.

Results

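Glycolysis splits glucose into pyruvate in the cytosol, and the lactate dehydrogenases interconvert pyruvate and lactate. Monocarboxylate transporters carry lactate across the cell membrane, and in brain tissue neurons, glia and vessel cells hold different isozymes and transporters. Several of these genes are known targets of the hypoxia-inducible factors, which bind a short DNA core in promoters and enhancers. The 10 genes described here are a named set of glycolytic isozymes with 1 lactate transporter: Pfkl, Pfkp, Aldoa, Aldoc, Pgk1, Eno1, Eno2, Pkm, Ldhb and Slc16a3. They were found by symbol in the count table, where all 10 of 10 were present among 30735 genes, and all 10 passed the filter on low counts that left 18444 genes for testing.

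Levels were measured by RNA-seq of cerebral cortex from 18 adult Sprague Dawley rats, with 1 library per rat and 6 rats per group. In the SAH 1d and SAH 7d groups, subarachnoid hemorrhage (SAH, bleeding into the space around the brain) was produced by perforating an intracranial artery from inside the vessel, and cortex was taken 1 day or 7 days later. The sham group had the surgery without the perforation, and the day of its sampling is not given in the sources used here, nor is the sex of the rats. The methods of the study describe cortex of the operated side, whereas the deposited labels name both sides. The same label text names mice, whereas the study and the gene identifiers are of rats. A library was assigned to its group by its deposited description, and libraries are named by group and number.

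Total counts ranged from 27270026 to 38271014 per library, and 6.65% to 19.4% of them were from mitochondrial genes, with the highest share in sham-1. Among the sham libraries, sham-1 was also the lowest for 6 of the 10 genes (Pfkp, Aldoa, Pgk1, Eno2, Pkm and Ldhb). Markers of neurons, astrocytes and oligodendrocytes were present in every library. A pair of libraries stood apart from the rest. In SAH 7d-5 the summed FPKM (fragments per kilobase, scaled to the mapped reads of the library) of 8 neuron markers was 967, against 2803 to 3830 in the other SAH 7d libraries, and that of the monocyte and macrophage markers was 6654, against 60.6 to 180.2. In SAH 1d-3 the monocyte and macrophage sum was 468, against 64.1 to 93.1 in the other SAH 1d libraries. Choroid plexus markers summed to 936 FPKM in SAH 1d-4 and 1412 FPKM in SAH 1d-6, against 82.0 FPKM or less in every other library. Among the sham libraries, sham-1 had the lowest neuron sum, 2343 FPKM against 3236 to 4134 in the others. It also had the highest astrocyte, oligodendrocyte, microglia and endothelial sums of that group. In whole tissue, a lower level of a gene may mean fewer cells of a type or less RNA per cell, and these cannot be told apart.

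One day after SAH, Slc16a3, the lactate transporter MCT4, was 5.24-fold higher than in the sham group, while Aldoc, Ldhb and Eno2 fell by 35.0%, 30.9% and 20.8%. The other 6 genes did not pass the test. Thus 4 of the 10 genes were called (1 higher, 3 lower) at a Benjamini-Hochberg adjusted p under 0.05 in edgeR's quasi-likelihood test, where 25.4% of all tested genes were called, 14.9% higher and 10.5% lower. When the log2 fold change also had to reach 1 in either direction, Slc16a3 was the 1 gene left, where 5.57% of all tested genes were left as higher and 1.06% as lower. The median log2 fold change of the 10 genes was -0.07, and that of all tested genes was 0.01. The log2 fold change of Slc16a3, 2.39 in this fit, was 1.65 without SAH 1d-3, and the call of Eno2 held in 7 of 23 alternative settings. At day 7 none of the 10 genes passed this test against the sham group, where 0% of all tested genes did.

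**Figure D1:**
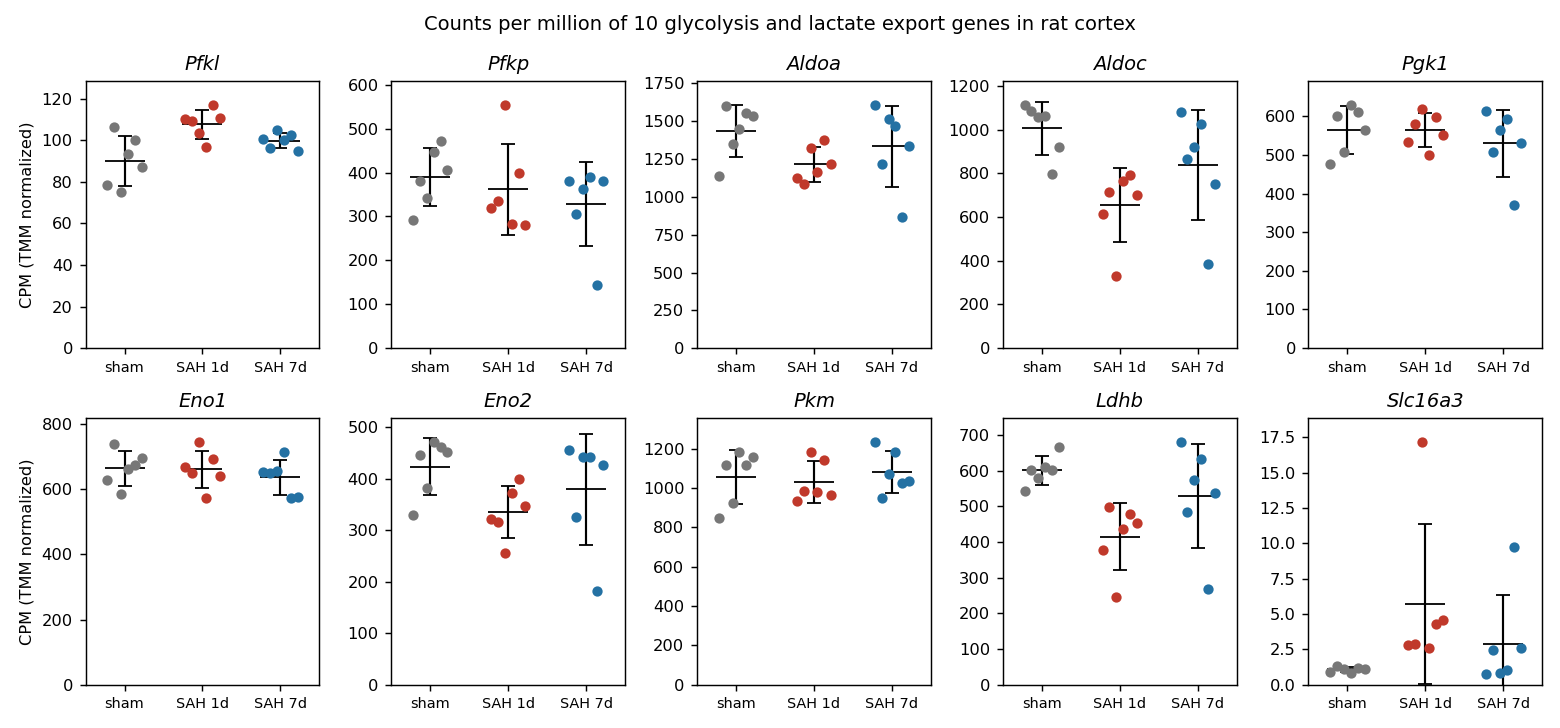
CPM (TMM normalized counts, linear axes from 0) of the 10 genes in each of 6 libraries per group, with the group mean as a bar and the SD as whiskers. Aldoc and Ldhb lie lower in every SAH 1d library than in any sham library, Slc16a3 lies higher, and SAH 7d-5 and SAH 1d-3 give the isolated points of several panels.

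The promoters of the 4 genes that changed at day 1 are shown, since 3 of them moved together and 1 the other way. The windows are from RefSeq on the GRCr8 rat assembly, 250 bases before to 50 bases after the annotated start, each written 5′ to 3′ on the strand of its gene. Capitals mark the core of the hypoxia response element, ACGTG or GCGTG, searched on both strands, so that a match on the opposite strand reads CACGT or CACGC. The Aldoc window lies at chr10:63715294-63715593 on the plus strand, the Ldhb window at chr4:177177359-177177658 on the minus strand, the Eno2 window at chr4:159267171-159267470 on the minus strand and the Slc16a3 window at chr10:106712078-106712377 on the plus strand.
Aldoc: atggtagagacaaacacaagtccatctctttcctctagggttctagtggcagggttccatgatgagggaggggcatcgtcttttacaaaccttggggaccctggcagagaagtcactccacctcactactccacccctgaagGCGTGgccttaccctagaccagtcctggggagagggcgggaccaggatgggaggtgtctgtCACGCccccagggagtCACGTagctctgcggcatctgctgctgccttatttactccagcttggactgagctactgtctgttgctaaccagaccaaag
Ldhb: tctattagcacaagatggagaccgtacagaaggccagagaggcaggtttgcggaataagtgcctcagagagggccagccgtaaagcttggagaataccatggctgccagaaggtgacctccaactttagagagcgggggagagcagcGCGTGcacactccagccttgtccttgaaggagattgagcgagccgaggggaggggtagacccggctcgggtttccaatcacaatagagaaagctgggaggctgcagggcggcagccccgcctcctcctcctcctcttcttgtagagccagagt
Eno2: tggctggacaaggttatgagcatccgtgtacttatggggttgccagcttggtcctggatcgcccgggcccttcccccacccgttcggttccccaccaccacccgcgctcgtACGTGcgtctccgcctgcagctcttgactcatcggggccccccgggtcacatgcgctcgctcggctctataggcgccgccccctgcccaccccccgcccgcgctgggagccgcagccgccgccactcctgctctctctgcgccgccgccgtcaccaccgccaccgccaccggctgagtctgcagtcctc
Slc16a3: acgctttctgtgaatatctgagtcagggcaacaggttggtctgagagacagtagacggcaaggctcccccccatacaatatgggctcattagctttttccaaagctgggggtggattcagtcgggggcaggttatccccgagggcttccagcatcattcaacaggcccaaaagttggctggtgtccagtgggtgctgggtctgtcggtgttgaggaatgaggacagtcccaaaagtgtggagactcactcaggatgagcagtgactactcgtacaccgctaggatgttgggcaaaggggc
The Aldoc window held 3 matches, starting at -108, -47 and -31 relative to the gene start, and 8.15% of all 33469 windows of this length held 3 or more. The Ldhb window held 1 match at -103, the Eno2 window 1 at -139, and the Slc16a3 window none of these letters. In all, 9 of the 10 genes had a window, with 12 windows between them because Aldoa and Eno1 have several annotated starts, and 8 of the 12 held at least 1 match, where 41.6% of all windows did. Pgk1 was the gene without a window. A match describes letters only, and no binding was measured.

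In the sham group, expression per length spanned more than 3 orders of size between the most and the least abundant of these genes. Mean FPKM in the sham group was 934 ± 138 (SD, n = 6) for Aldoa, 590.4 ± 64.1 for Aldoc, 507 ± 76.3 for Pkm, 417 ± 35.8 for Ldhb, 357 ± 37.2 for Eno1 and 311 ± 42.6 for Pgk1. It was 168 ± 26.5 for Eno2, 161 ± 31.8 for Pfkp, 30.5 ± 5.01 for Pfkl and 0.481 ± 0.0929 for Slc16a3. In this order the ranges of neighbours overlapped from Aldoc through Pkm, Ldhb and Eno1 to Pgk1, and between Eno2 and Pfkp. They did not overlap between Aldoa and Aldoc, between Pgk1 and Eno2, between Pfkp and Pfkl or between Pfkl and Slc16a3. At day 1, Pkm at 542 ± 48.3 FPKM lay above Aldoc at 417 ± 109, and Ldhb at 313 ± 73.0 FPKM lay below Eno1 at 383 ± 31.5 and Pgk1 at 335 ± 25.4. At day 7, Ldhb at 379 ± 103 FPKM again lay above Eno1 at 353 ± 30.1 and Pgk1 at 301 ± 48.0, while Pkm at 542 ± 49.9 stayed above Aldoc at 509 ± 152. These orders describe means. Among the pairs named, the ranges of Pkm and Aldoc at day 1 did not overlap, and those of the other pairs did.

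The first question was how each step stood 1 day after SAH against the sham group. Values per library are given as CPM, counts scaled to a common library size after TMM normalization, which compares a gene between libraries but not genes with each other. Phosphofructokinase catalyses the committed step of glycolysis, and the liver-type subunit is encoded by Pfkl and the platelet-type subunit by Pfkp. Pfkl had a lowest, median and highest CPM of 75.3, 90.2 and 106 in the sham group and of 96.6, 109.6 and 117 at day 1. All 6 SAH 1d libraries lay above the sham mean, with 2 sham libraries reaching into their range. The log2 fold change of Pfkl was 0.26 ± 0.09 (SE), with a 95% interval of 0.06 to 0.46 and an adjusted p of 0.0527 in edgeR. It did not pass the threshold, and it did pass in 11 of 23 alternative settings, including the fit without SAH 1d-3 (0.27, adjusted p = 0.0435). It also passed without SAH 1d-4 (0.29, adjusted p = 0.0436), without sham-2 (0.31, adjusted p = 0.0286) and without sham-5 (0.29, adjusted p = 0.0489). Pfkp ranged from 292 to 471 CPM in the sham group and from 281 to 553 CPM at day 1, and the highest of these was SAH 1d-3. Its log2 fold change was -0.11 ± 0.17 (adjusted p = 0.681), and -0.27 (adjusted p = 0.133) without SAH 1d-3.

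Aldolase cleaves the 6-carbon sugar, and Aldoc encodes aldolase C, the brain isozyme that is abundant in astrocytes, whereas Aldoa encodes the widely expressed aldolase A. Aldoc had a lowest, median and highest CPM of 799, 1059.8 and 1111 in the sham group, of 330.1, 708 and 794 at day 1 and of 384, 893 and 1081 at day 7. Every SAH 1d library lay below every sham library, and SAH 1d-3 was the lowest. Such a gap downward was seen for 2 of the 10 genes, Aldoc and Ldhb, where 5.41% of all tested genes had one. For Aldoc the log2 fold change was -0.62 ± 0.17, with a 95% interval of -0.99 to -0.25 and an adjusted p of 0.0202 in edgeR. Without SAH 1d-3 it was -0.49 (adjusted p = 0.00236), and over the 12 fits that each left out 1 library it ranged from -0.69 to -0.49 with the call kept in all 12. The call was lost with all 18 libraries in 1 fit (adjusted p = 0.0658) and in limma on unfiltered FPKM (adjusted p = 0.0725). Aldoa ranged from 1139 to 1603 CPM in the sham group and from 1083.5 to 1376 CPM at day 1. All 6 SAH 1d libraries lay below the sham mean, and the ranges overlapped through sham-1 and sham-3. Its log2 fold change was -0.24 ± 0.10 with an adjusted p of 0.083, which passed without sham-1 (-0.30, adjusted p = 0.018).

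Pgk1 encodes phosphoglycerate kinase, the first step of glycolysis that yields ATP. It had a lowest, median and highest CPM of 477, 582 and 629 in the sham group, of 500.2, 565 and 619 at day 1 and of 370.1, 548 and 613 at day 7. The sham and SAH 1d ranges lay almost on top of each other. At day 1 the log2 fold change was -0.00 ± 0.09, with a 95% interval of -0.19 to 0.19 (adjusted p = 0.995), so a change of more than 0.19 in either direction lies outside the interval.

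Enolase makes phosphoenolpyruvate. Eno1 encodes the widely expressed alpha enolase, and Eno2 encodes gamma enolase, known as neuron-specific enolase. Eno2 had a lowest, median and highest CPM of 329.96, 449 and 471 in the sham group, of 256, 334 and 401 at day 1 and of 183, 435 and 455 at day 7. All 6 SAH 1d libraries lay below the sham mean, and sham-1 and sham-3 lay within the SAH 1d range. Eno2 had a log2 fold change of -0.34 ± 0.12, with a 95% interval of -0.59 to -0.09 and an adjusted p of 0.0481 in edgeR, just inside the threshold. The call held in 7 of 23 alternatives. Among the 12 fits that left out 1 library, it held only without sham-1 (-0.40, adjusted p = 0.0165) and without SAH 1d-5 (-0.39, adjusted p = 0.0294), and without SAH 1d-3 it was -0.27 (adjusted p = 0.0594). It was lost without any of the other libraries of both groups as well, with adjusted p up to 0.0999. Eno1 ranged from 583 to 739 CPM in the sham group and from 572 to 744 CPM at day 1. Its log2 fold change was -0.01 ± 0.08, with a 95% interval of -0.18 to 0.17 (adjusted p = 0.968).

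Pkm encodes the muscle-type pyruvate kinases M1 and M2, which arise by alternative splicing and were counted together. It ranged from 850.1 to 1183 CPM in the sham group and from 932 to 1184 CPM at day 1. Its log2 fold change was -0.04 ± 0.10, with a 95% interval of -0.25 to 0.18 (adjusted p = 0.826). On the FPKM scale, where the median of all genes was shifted upward by 0.09 on log2(FPKM + 1), the changes of Pkm, Eno1 and Pgk1 turned positive (0.11, 0.11 and 0.12) and did not pass the test either.

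Ldhb encodes the heart-type subunit of lactate dehydrogenase, and Ldha the muscle-type subunit. Ldhb had a lowest, median and highest CPM of 543, 602 and 666 in the sham group, of 245, 445 and 499 at day 1 and of 268, 556 and 680.4 at day 7. Every SAH 1d library lay below every sham library, again with SAH 1d-3 the lowest. Ldhb had a log2 fold change of -0.53 ± 0.14, with a 95% interval of -0.83 to -0.23 and an adjusted p of 0.0151 in edgeR. Without SAH 1d-3 it was -0.42 (adjusted p = 0.00179), and over the 12 fits without 1 library it ranged from -0.59 to -0.42 with the call kept in all 12. As for Aldoc, the call was lost with all 18 libraries in 1 fit (adjusted p = 0.0642) and in limma on unfiltered FPKM (adjusted p = 0.074).

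Slc16a3 encodes MCT4, a low-affinity carrier of glycolytic cells that is best known for lactate release. It was scarce in sham cortex, with 27 to 39 counts per library. Its lowest, median and highest CPM was 0.834, 1.13 and 1.35 in the sham group, 2.61, 3.62 and 17.2 at day 1 and 0.766, 1.73 and 9.77 at day 7. Every SAH 1d library lay above every sham library, which held for 1 of the 10 genes and for 7.89% of all tested genes, and the highest value was that of SAH 1d-3. At day 7, 3 libraries lay within the sham range or below it, 2 were at 2.43 and 2.60 CPM, and SAH 7d-5 was the highest. At day 1 the log2 fold change was 2.39 ± 0.46, with a 95% interval of 1.39 to 3.39 and an adjusted p of 0.00326 in edgeR. Without SAH 1d-3 it was 1.65 (adjusted p = 0.000126), and the call held in 23 of 23 alternatives, with log2 fold changes from 1.13 to 2.54.

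**Figure D2:**
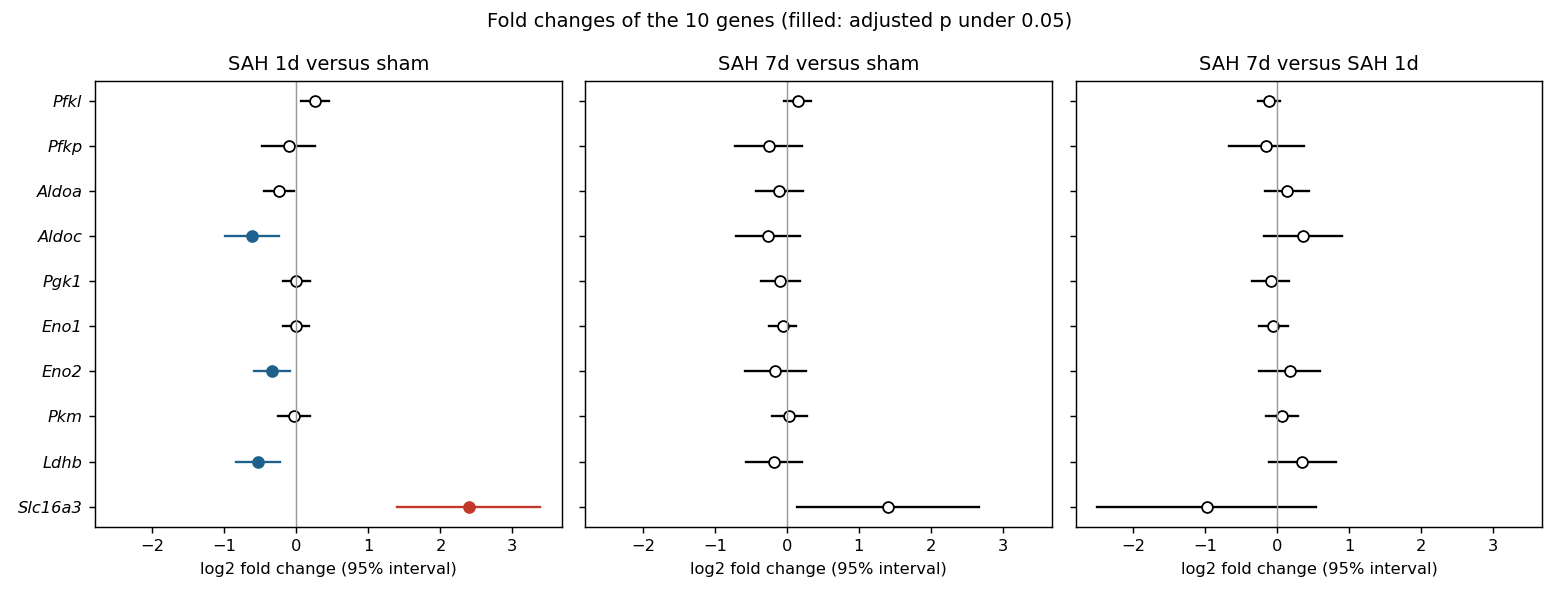
Log2 fold changes of the 10 genes with 95% intervals from edgeR in the 3 comparisons of 6 against 6 libraries, with filled points for an adjusted p under 0.05. At day 1 the points of Aldoc, Eno2 and Ldhb are filled to the left of 0 and that of Slc16a3 to the right, and no point is filled in the other panels.

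Markers of some cell types also differed at day 1. None of 6 oligodendrocyte, 5 fibroblast or 5 red cell markers passed, and of 6 microglia markers 1 was lower (P2ry12). At day 1, 7 of 8 neuron markers were lower, with a median log2 fold change of -0.57, and their summed FPKM ranged from 2343 to 4134 in the sham group and from 2220 to 2593 at day 1. Eno2 and the neuron sum were both lowest in SAH 7d-5, at 75.9 FPKM and 967 FPKM. SAH 1d-3 had the lowest Eno2 of its group (107 FPKM). Its neuron sum, 2262 FPKM, lay within the range of the other SAH 1d libraries (2220 to 2593 FPKM). Of 7 astrocyte markers, the reactive marker Gfap was higher (adjusted p = 1.37e-06) and Aldh1l1 lower (log2 fold change -0.85). The median log2 fold change of the list was -0.16, with negative values for 5 of the 7 (Slc1a2 at -0.19, Slc1a3 at -0.27, Gja1 at -0.16 and S100b at -0.12 beside Aldh1l1), whereas the summed FPKM was 1273 to 1953 in the sham group and 2249 to 2752 at day 1. Of 6 monocyte and macrophage markers, 5 were tested and 3 were higher at day 1, and their summed FPKM was 34.3 to 54.9 in the sham group and 64.1 to 468 at day 1. Both neutrophil markers that could be tested of 6 were also higher, and their list summed to 0.612 to 3.89 FPKM in the sham group and 3.04 to 79.5 FPKM at day 1, highest in SAH 1d-3. Slc16a3 was highest in the same 2 libraries, SAH 7d-5 and SAH 1d-3, that held the most monocyte and macrophage and neutrophil marker RNA. These 2 libraries also held the most fibroblast marker RNA (642 and 104 FPKM), and SAH 7d-5 the most microglia marker RNA (1218 FPKM). Between these 2 libraries, Slc16a3 was lower in SAH 7d-5 than in SAH 1d-3 (4.61 against 8.14 FPKM). The monocyte and macrophage sum was larger in SAH 7d-5 (6654 against 468 FPKM), as were the microglia and fibroblast sums. The neutrophil sum (23.4 against 79.5 FPKM) and the endothelial sum (45.6 against 96.5 FPKM) were smaller in SAH 7d-5. No neuron, astrocyte, monocyte and macrophage or neutrophil marker in the table was at 0 in every library of a group. The part of these cell types in the changes of Aldoc, Eno2, Ldhb and Slc16a3 was not tested. Without SAH 1d-3, the changes of Aldoc, Ldhb and Slc16a3 remained past the threshold, as given above. The omission is no test of cell types, since the other SAH 1d libraries also had monocyte and macrophage sums above the sham range.

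**Figure D3:**
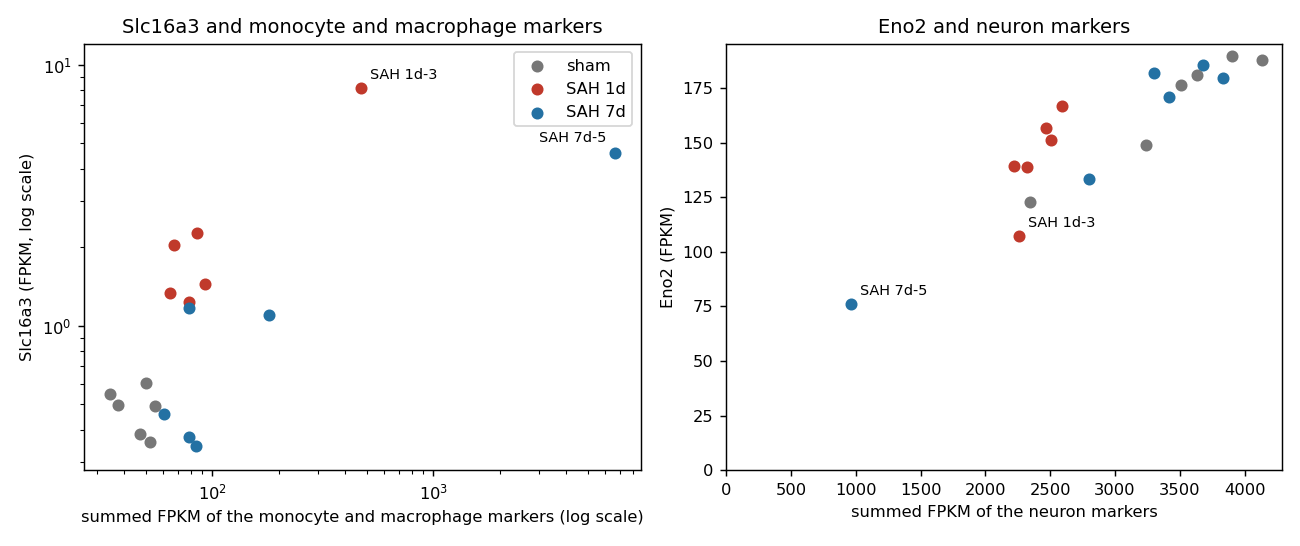
Left, Slc16a3 FPKM against the summed FPKM of the monocyte and macrophage markers, both on log axes. Right, Eno2 FPKM against the summed FPKM of the neuron markers, both on linear axes from 0. Each point is 1 of 18 libraries coloured by group, and SAH 7d-5 and SAH 1d-3 hold the highest Slc16a3 (4.61 and 8.14 FPKM) and the lowest Eno2 (75.9 and 107 FPKM).

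The rest of the pathway at day 1 was described by lists of related genes. Of 18 other core glycolysis genes, 16 were tested, 2 were higher, 4 were lower and 10 did not pass. Beside this list and those that follow, 14.9% of all tested genes were called higher at day 1 and 10.5% lower. Hk2, an inducible hexokinase, rose by a log2 fold change of 1.04 (adjusted p = 0.0116), from a median of 8.14 CPM to 13.1 CPM. Hk3, a hexokinase of blood cells, was at 0 counts in 5 of 6 sham libraries and at 12 to 188 counts in the SAH 1d libraries (adjusted p = 0.000662), most in SAH 1d-3, and no fold is given against so low a level. Pfkm, the muscle-type subunit of phosphofructokinase, fell by 0.51 on the log2 scale (adjusted p = 0.0179), and Gpi, glucose-6-phosphate isomerase, fell by 0.36 (adjusted p = 0.0308). Ldha, which is not among the 10 genes, had a log2 fold change of 0.13 ± 0.21 (adjusted p = 0.678), with 2 of 6 SAH 1d libraries above the sham mean. It was at 871 CPM in SAH 1d-3, against 323 to 494 CPM in the other 5 SAH 1d libraries and 353 to 537 CPM in the sham group. In a fit without SAH 1d-3, chosen after seeing the data, its direction turned (-0.13, adjusted p = 0.44).

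Transport genes at day 1 included other carriers of glucose and lactate. Of 10 tested, 2 were higher and 1 was lower. Slc16a1, the transporter MCT1 of glia and vessel cells, rose by 0.77 ± 0.11 (adjusted p = 0.000414), from 55.8 to 85.9 CPM in the sham group to 93.9 to 122 CPM at day 1, with no overlap. Slc2a1, the glucose transporter GLUT1 of vessel cells and astrocytes, rose by 0.71 (adjusted p = 0.0183). Of 6 endothelial markers, 5 were tested and 2 were higher at day 1, Cdh5 by 1.01 (adjusted p = 0.0106) and Esam by 0.88 (adjusted p = 0.033), with a list median of 0.34 on the log2 scale. Their summed FPKM was 27.6 to 41.9 in the sham group and 41.7 to 96.5 at day 1, highest in SAH 1d-3, and their part in the changes of Slc16a1 and Slc2a1 was not tested. Slc16a7, the neuronal transporter MCT2, fell by 0.61 (adjusted p = 0.00461), and every SAH 1d library lay below every sham library. Slc16a7 was highest in SAH 7d-5, at 21.1 CPM, with sham-5 next at 12.6 CPM, although SAH 7d-5 had the lowest neuron marker sum (967 FPKM). The part of neurons in its change was not tested. Of 10 regulators of flux, 9 were tested and 1 passed, namely Pfkfb3, which makes the activator of phosphofructokinase and rose by 1.12 (adjusted p = 0.00711). Of 9 genes of the mitochondrial pyruvate carrier, pyruvate dehydrogenase and its phosphatases, 3 fell and none rose. These were Pdhb by 0.40 (adjusted p = 0.00154) and Pdha1 by 0.28 (adjusted p = 0.0115), subunits of pyruvate dehydrogenase, and Mpc1, a subunit of the pyruvate carrier, by 0.33 (adjusted p = 0.0244). Of 8 glycogen genes, Gbe1, the branching enzyme, fell by 0.29 (adjusted p = 0.0197), and the other 7 did not pass.

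**Figure D4:**
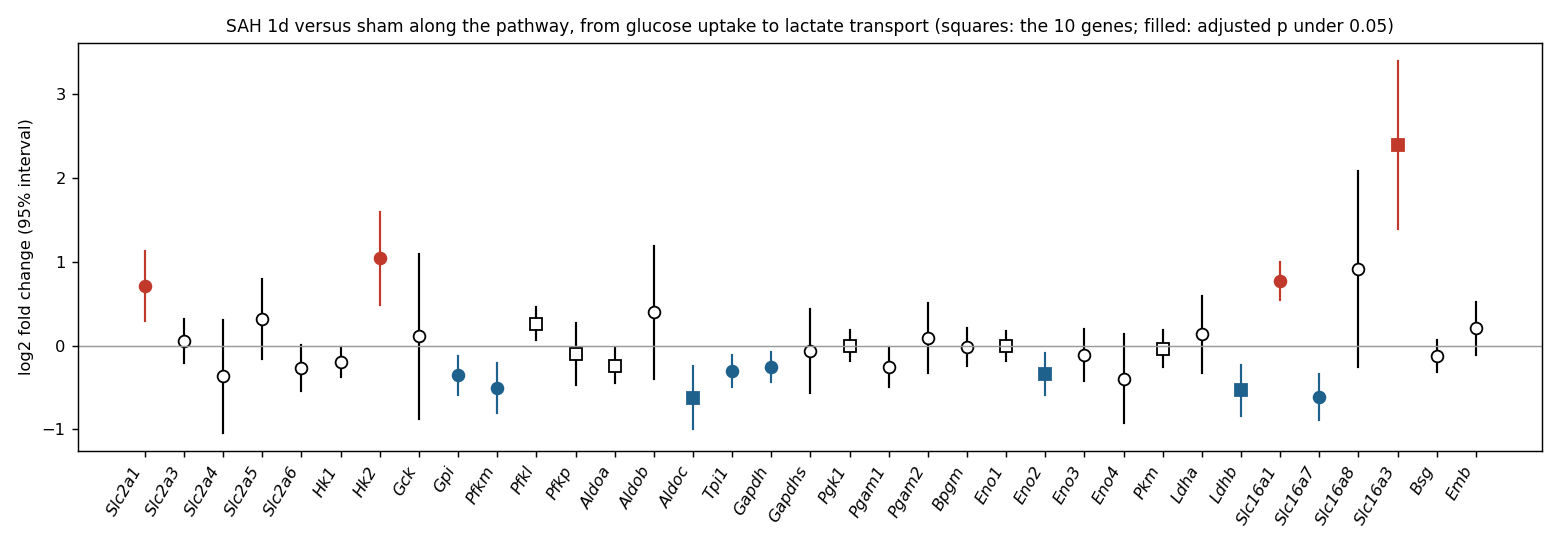
Log2 fold changes with 95% intervals from edgeR for SAH 1d against sham (6 against 6 libraries), for 35 genes from glucose uptake to lactate transport, with squares for the 10 genes and filled symbols for an adjusted p under 0.05. Every other tested gene of the core glycolysis and transport lists is drawn except Hk3, whose sham level is too low for a fold. Slc2a1, Hk2, Slc16a1 and Slc16a3 are filled above 0, while the filled enzymes between Gpi and Ldhb lie below 0.

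Isozyme ratios were compared within libraries, since the size of the library cancels in a ratio. Each was taken as log2 of (FPKM + 0.1) of 1 gene over the other and tested by an exact two-sided permutation test over all 924 splits of 6 against 6, with adjustment over 15 tests (5 ratios in 3 comparisons). The smallest p this design allows is 0.00216, and no ratio passed an adjusted p of 0.05. At day 1 the ratio of Slc16a3 to Slc16a1 was -4.29 ± 0.91 (SD, n = 6), against -5.35 ± 0.36 in the sham group, a difference of 1.06 (exact permutation p = 0.00433, adjusted p = 0.0649). With a pseudocount of 1 in place of 0.1, which outweighs the sham level of Slc16a3, that difference was 0.26 (exact permutation p = 0.528, adjusted p = 0.652). The ratio of Ldha to Ldhb was -0.10 ± 0.84 at day 1 against -0.73 ± 0.19, a difference of 0.63 (exact permutation p = 0.0217, n = 6 per group, adjusted p = 0.114). The ratio of Eno1 to Eno2 was higher by 0.33 (exact permutation p = 0.0303, adjusted p = 0.114), that of Pfkl to Pfkp by 0.40 (p = 0.0455, adjusted p = 0.136) and that of Aldoa to Aldoc by 0.43 (p = 0.0952, adjusted p = 0.238).

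SAH 1d-3 weighed on these ratios in both directions. It was the highest library of its group for Aldoa to Aldoc, Eno1 to Eno2, Ldha to Ldhb and Slc16a3 to Slc16a1, and the lowest for Pfkl to Pfkp. Without it, the difference was 0.54 for Pfkl to Pfkp and 0.72 for Slc16a3 to Slc16a1, and both passed (exact permutation, adjusted p = 0.0487 each). The other differences were smaller without it, at 0.29 for Ldha to Ldhb, 0.22 for Aldoa to Aldoc and 0.22 for Eno1 to Eno2 (exact permutation, adjusted p = 0.138, 0.417 and 0.195). Without SAH 1d-4, Ldha to Ldhb (0.74, adjusted p = 0.0487) and Slc16a3 to Slc16a1 (1.22, adjusted p = 0.0325) passed in the exact permutation test. As shares of the summed FPKM of a step, Aldoc made up 38.9% ± 5.26 (SD, n = 6) of aldolase in the sham group and 32.5% ± 7.13 at day 1. Eno2 made up 31.7% ± 2.29 and 27.1% ± 4.14 of enolase, Ldhb 62.3% ± 3.04 and 52.1% ± 13.5 of lactate dehydrogenase, and Pfkl 8.29% ± 0.756 and 11.8% ± 0.948 of phosphofructokinase. The ranges of the Pfkl share did not overlap, at 7.58% to 9.58% in the sham group and 10.4% to 13.1% at day 1. That sum also holds Pfkm, which made up 48.2% ± 2.45 and 40.5% ± 9.71. Shares were not tested. Slc16a3 stayed a minor part of the 3 monocarboxylate transporters, at 1.74% ± 0.415 in the sham group and 5.23% ± 4.25 at day 1. The ranges of its share did not overlap either (1.13% to 2.23% and 2.52% to 13.7%). Nor did those of the Slc16a7 share (9.84% to 20.0% and 4.73% to 7.55%).

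**Figure D5:**
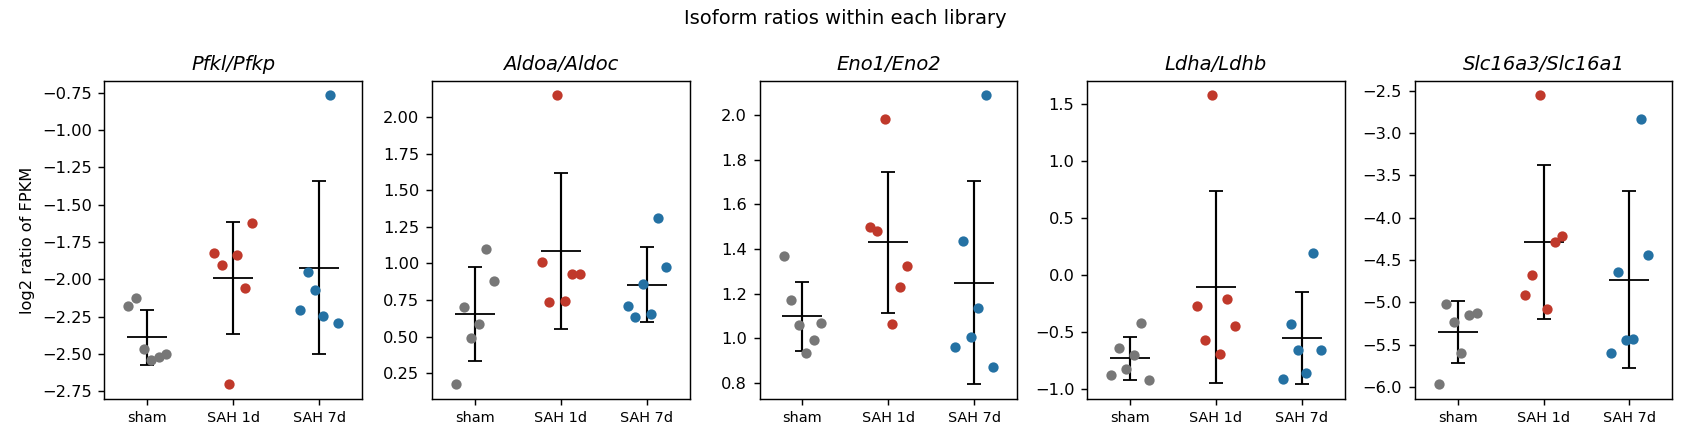
Log2 ratio of FPKM for 5 isozyme or transporter pairs in each library, with the group mean as a bar and the SD as whiskers (6 libraries per group). The isolated highest points of Aldoa to Aldoc, Ldha to Ldhb and Slc16a3 to Slc16a1 at day 1 are SAH 1d-3, and that of Pfkl to Pfkp at day 7 is SAH 7d-5.

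The second question was where these genes stood at day 7, first against the sham group. None of the 10 genes passed an adjusted p of 0.05 in edgeR, where 0% of all tested genes did, and Slc16a3 alone had an unadjusted p under 0.05 (0.0324), as did 15.4% of all tested genes. None of the 10 was separated from the sham libraries without overlap, where 0.797% of all tested genes were so on the higher side and 0.428% on the lower side. DESeq2 called 459 genes in this comparison and none of the 10. The log2 fold change of Slc16a3 was 1.40 ± 0.58 (adjusted p = 0.292), and without SAH 7d-5 it was 0.49 (adjusted p = 0.603). For Aldoc it was -0.26 ± 0.21, for Pfkp -0.25 ± 0.21, for Ldhb -0.18 ± 0.18 and for Eno2 -0.16 ± 0.20, with adjusted p from 0.506 to 0.662. SAH 7d-5 was the lowest library of its group for each of these 4 genes, and without it the values were -0.11, -0.09, -0.04 and -0.01. Pfkl lay above the sham mean in all 6 SAH 7d libraries, with a log2 fold change of 0.15 ± 0.09 (adjusted p = 0.4). The other 4 genes, Aldoa, Pgk1, Eno1 and Pkm, lay between -0.10 and 0.04. No other gene of the pathway lists passed in this comparison. The ratio of Pfkl to Pfkp was higher at day 7 by 0.47 (exact permutation p = 0.026, n = 6 per group, adjusted p = 0.114), and by 0.24 without SAH 7d-5 (exact permutation p = 0.0455, adjusted p = 0.136).

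Between the SAH groups, again none of the 10 genes passed in edgeR, where 1.37% of all tested genes were called (0.282% higher and 1.08% lower at day 7), and none had an unadjusted p under 0.05, as 14.7% of all tested genes did. None was separated without overlap between the SAH groups, where 0.938% of all tested genes were higher and 2.11% lower at day 7. DESeq2 called 1012 genes in this comparison and none of the 10. Each group enters 2 of the 3 comparisons, so these are not independent of each other. Aldoc and Ldhb were higher at day 7 than at day 1 by 0.36 ± 0.25 and 0.35 ± 0.22 on the log2 scale (adjusted p = 0.544 and 0.488), in values that did not pass the test. In 5 of 6 SAH 7d libraries both genes lay above the SAH 1d mean, and SAH 7d-5 was the exception. Without SAH 7d-5 and SAH 1d-3, Aldoc (0.37, adjusted p = 0.0363) and Ldhb (0.37, adjusted p = 0.0332) passed as higher at day 7, and the number of all genes called rose from 252 to 2512. The log2 fold change of Slc16a3 was -0.98 ± 0.70 (adjusted p = 0.557), and it ranged from -0.24 without SAH 1d-3 to -1.93 without SAH 7d-5. Of the pathway lists, Slc16a1 was the 1 gene to pass, falling by 0.67 ± 0.12 (adjusted p = 0.0216) from 93.9 to 122 CPM at day 1 to 52.7 to 84.9 CPM at day 7, and its groups did not overlap. The share of Slc16a7 among the transporters was 14.6% ± 3.26 in the sham group, 5.91% ± 0.956 at day 1 and 14.5% ± 3.02 at day 7.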

How the data were processed

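RNA of cerebral cortex from 18 rats was sequenced (NEBNext Ultra libraries, Illumina HiSeq2500). Per the study's methods, reads were aligned to the rat genome Rnor_6.0 with annotation release 95, whereas the submitters' processing notes name fastp, HISAT2, DESeq2 1.16.1 and the mouse build mm9. The gene identifiers of the tables are rat identifiers. The authors deposited whole-number read counts per gene, not normalized, and FPKM values per gene. The counting program, its use of strand and its treatment of reads shared with pseudogene copies are not stated in the study's methods or the labels, so levels of Aldoa, Eno1, Pgk1 and Pkm, genes known to have such copies, are uncertain to that extent.

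Counts were filtered by filterByExpr over 18 libraries, normalized by TMM and tested with edgeR 4.0.16 in R 4.3.3 by the two-sided quasi-likelihood F test on the 12 libraries of the groups compared, with Benjamini-Hochberg adjustment over 18444 genes. Levels between genes were compared only in FPKM. Alternatives used DESeq2 1.42.0 and limma 3.58.1 on log2(FPKM + 1) and log2(FPKM + 0.1), with and without a filter on low values. Scripts were tested on simulated data. Total counts had a median of 30711729.5 per library, and all errors are those between rats. No pair of libraries was identical.

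All 10 genes were named, with Ldha and Slc16a1 as ratio partners, and from each pathway list up to 4 genes with the largest changes past the threshold in each comparison. The genes and lists were chosen with earlier results of these data known. Promoter windows are from RefSeq (GRCr8). Ratio tests used scipy 1.17.1 and figures matplotlib 3.10.9.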

Additional observations from a re-analysis of the deposited data

Results flagged for a closer look

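In 11 of 45 groups of 6 libraries tested (10 genes and 5 ratios in 3 groups), the highest or lowest library was separated from the nearest other by a share of the whole range above the 95% critical value of Dixon's test. Gaps and ranges were taken on log2 CPM for genes and on log2 ratios for ratios, whereas the CPM below are on the linear scale. Chance alone marks about 1 in 20 such groups when they are independent. These were not, since all came from the same 18 libraries and the ratios reuse genes tested alone. SAH 1d-3 was the separated library in 5 cases and SAH 7d-5 in 6.

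In SAH 1d-3, Aldoc was at 330.1 CPM against 615 to 794 in the other 5 SAH 1d libraries, and Slc16a3 was at 17.17 CPM against 2.61 to 4.62. The log2 ratio of Aldoa to Aldoc was 2.147 in SAH 1d-3 against 0.738 to 1.01, that of Ldha to Ldhb was 1.572 against -0.69 to -0.21, and that of Slc16a3 to Slc16a1 was -2.555 against -5.08 to -4.21.

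In SAH 7d-5, 5 enzymes were separated from the other libraries as the lowest of the group. Aldoc was at 384.1 CPM against 749 to 1081 in the other 5 SAH 7d libraries, Eno2 at 182.5 against 326 to 455, and Ldhb at 268.4 against 483 to 680.4. Pfkp was at 143.0 CPM against 305 to 391, and Pgk1 at 370.1 against 508 to 613. The log2 ratio of Pfkl to Pfkp was -0.7675 in SAH 7d-5 against -2.29 to -1.95.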

How the results depend on the processing

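At day 1 against sham, Slc16a3 was called in 23 of 23 alternatives, Aldoc and Ldhb in 21 and Eno2 in 7. With all 18 libraries in 1 fit, 2462 genes were called and 2 of the 10, both higher. Limma on unfiltered FPKM also called 2, both higher. Leaving out 1 library gave 3517 to 5252 genes and 3 to 5 of the 10. At day 7 against sham, DESeq2 called 459 genes and the fit of all 18 libraries 9, and leaving out 1 library gave 0 to 3 (3 without SAH 7d-4), with none of the 10 in any of these. Between the SAH groups, DESeq2 called 1012 genes, all 18 libraries 779, and limma 414 (log2(FPKM + 1)), 420.0 (log2(FPKM + 0.1)) and 393 (no filter). Leaving out both SAH 1d-3 and SAH 7d-5 gave 2512, with 2 of the 10, and leaving out 1 library gave 102 to 1545 (1545 without SAH 7d-5). The cause of these shifts was not tested. Replicate numbers did not pair the libraries, since at most 1 of 6 same-numbered pairs correlated above 0.1 in any comparison. With the replicate number as a block, 29 genes were called between the SAH groups, and 4 of the 10 were called at day 1. Ratio differences passed without SAH 1d-3 (Pfkl to Pfkp 0.54, Slc16a3 to Slc16a1 0.72 at day 1, the same without SAH 7d-5 as well). Over single omissions the day 1 differences ranged from 0.32 to 0.54 (Pfkl to Pfkp), 0.29 to 0.74 (Ldha to Ldhb) and 0.72 to 1.22 (Slc16a3 to Slc16a1). Ratios changed sign between the SAH groups for Slc16a3 to Slc16a1 with a pseudocount of 1 (0.0528) and for Pfkl to Pfkp without both libraries (-0.31; -0.16 to 0.14 over single omissions), and at day 7 against sham for Eno1 to Eno2 without both (-0.0176; -0.0176 to 0.23). In an alternative chosen after seeing the data, Ldha at day 1 was at -0.13 without SAH 1d-3, and the other 12 pathway genes named at day 1 kept their calls. Small fold changes that did not pass also changed sign. At day 1, Pgk1 was at 0.0025 with at least 10 counts required and at 0.0026 with the block. On FPKM, Pkm was at 0.11, Eno1 at 0.11 and Pgk1 at 0.12. Over single omissions Eno1 ranged from -0.0446 to 0.0343 and Pgk1 from -0.0464 to 0.0330. At day 7 against sham, Pgk1 reached 4.1e-06 without both libraries (-0.14 to 4.1e-06 over single omissions) and Pkm ranged from -0.0115 to 0.0717. Between the SAH groups, Pkm was at -0.0016 on FPKM, and without both libraries Pfkp was at 0.17 (-0.21 to 0.0155 over single omissions), Eno1 at 0.0065 and Pgk1 at 0.0187. Precision was limited by 6 rats a group and by the low counts of Slc16a3.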
